A study of Malus domestica with 15 samples.

Results

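In the skin of stored apples, 62 loci had a higher transcript level after shelf life than before it in fruit treated with 1-methylcyclopropene (1-MCP), and a lower level after shelf life in untreated control fruit. They were chosen by these values from the 30310 loci that carry an apple gene model (an MDP number), had no 0 in any group and averaged at least 1 FPKM (a read count scaled for transcript length and library size), out of 80965 loci in the table. A locus was taken when the difference of log2(FPKM + 1), after shelf life minus after cold storage, was at least 1 in 1-MCP fruit and -1 or less in control fruit. The pseudocount of 1 makes differences at low FPKM look smaller than the ratio of the values.

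The study measured RNA from apple (Malus domestica) skin in 5 groups of 3 samples each. Treated fruit were taken after 2 months in cold storage with a further 7 days of shelf life, and after the 2 months alone, and untreated control fruit at the same times and at harvest. Below, "after cold storage" means the time just before shelf life began. The 1-MCP gas was applied at a final 0.7 µl/L, and the labels name no cultivar. The harvest fruit were not stored and not treated, so a comparison of 1-MCP fruit with harvest joins treatment and storage.

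Apple is a climacteric fruit, in which a burst of ethylene drives ripening. Ethylene acts through receptors in the cell that keep the response switched off until the hormone binds them. 1-MCP occupies these receptors and holds the response off, which delays softening and aroma production in storage and lowers superficial scald, a browning of the skin that shows after cold storage. Cold storage slows ripening, and shelf life is the warmer period after it in which stored fruit usually go on ripening.

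The deposited table gives 1 value per group and none per library, so no value below has an error and no difference could be tested or set against the spread between replicates. Library depth is unknown, which limits most what can be said of loci near 1 FPKM. The table pairs no locus with a gene name, function or position, and 0 of its 63541 gene models matched an entry of RefSeq's apple annotation, so the loci are called by their identifiers, no skin marker could be read and no sequence is shown. Because the libraries were not directional, a read may come from either strand of its locus.

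The opposite shelf-life differences fixed by the choice were mostly modest. A shelf-life difference of 1 or more in 1-MCP fruit was held by 1.94% of the 30310 loci, and one of -1 or less in control fruit by 8.08%. Over the 62 loci the median difference was 1.43 in 1-MCP fruit and -1.44 in control fruit, against -0.13 in 1-MCP fruit and -0.24 in control fruit over all loci analysed. Both differences were at least 2 in size at 4 loci (CUFF.38194, MDP0000299658, CUFF.22803 and CUFF.4476) and at least 1.5 at 13, and at 28 loci the smaller one was below 1.2. The difference in 1-MCP fruit was the larger at 33 loci and that in control fruit at 29. The reverse pattern, lower in 1-MCP and higher in control fruit, was held by 86 loci, where 4.50% of all loci were lower with shelf life in 1-MCP fruit and 3.13% higher in control fruit. A further 151 loci were higher and 501 lower with shelf life in both treatments. With a pseudocount of 0.1 the rule chose 108 loci and with a pseudocount of 5 it chose 29. After 75th percentile scaling of the columns the medians over all loci were -0.02 in 1-MCP fruit and -0.08 in control fruit, and 57 loci were chosen, 49 of them among the 62.

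**Figure D1:**
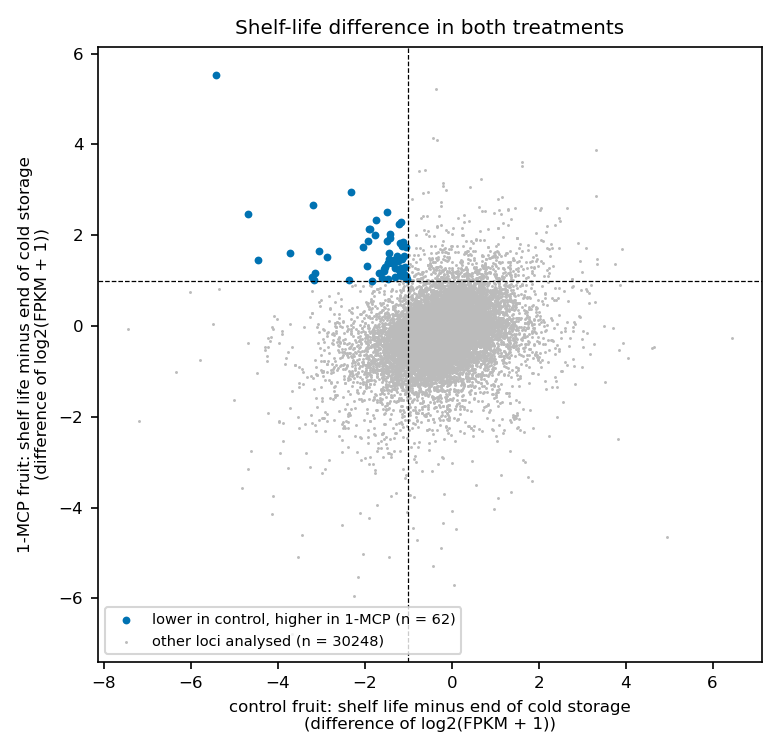
Each point is a locus; the x axis gives the shelf-life minus cold storage difference of log2(FPKM + 1) in control fruit and the y axis the same difference in 1-MCP fruit, with dashed lines at -1 and 1. The 62 chosen loci (blue) fill the upper left corner, and CUFF.38194 lies apart from the others, at 5.53 in 1-MCP fruit and -5.41 in control fruit.

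CUFF.38194 (gene model MDP0000345053) had the largest opposite differences. It stood at 252 FPKM after shelf life and 4.47 FPKM after cold storage in 1-MCP fruit, a 56.4-fold ratio (log2 difference 5.53). Control fruit had 4.04 FPKM after shelf life and 213 FPKM after cold storage, 52.8-fold lower after shelf life (-5.41). Harvest fruit had 5.17 FPKM, so the low value of each treatment lay close to harvest, and the high values of the 2 treatments, which came at different times, lay close to each other.

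A like shape was seen at CUFF.22803 (MDP0000345309) and MDP0000299658. CUFF.22803 was at 18.1 FPKM after shelf life and 2.43 FPKM after cold storage in 1-MCP fruit, against 1.09 FPKM after shelf life and 52.7 FPKM after cold storage in control fruit, with 1.27 FPKM at harvest. MDP0000299658 was at 15.5 FPKM after shelf life and 1.57 FPKM after cold storage in 1-MCP fruit, against 4.12 FPKM after shelf life and 45.5 FPKM after cold storage in control fruit, with 3.22 FPKM at harvest. At both loci the control value after cold storage was the highest of the 5, above either 1-MCP value.

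At other loci with large differences, harvest was the high starting point. CUFF.4476 (MDP0000164386) was at 98.2 FPKM after shelf life and 11.9 FPKM after cold storage in 1-MCP fruit, against 3.28 FPKM after shelf life and 20.4 FPKM after cold storage in control fruit, with 55.8 FPKM at harvest. CUFF.43134 (MDP0000352654) was at 49.5 FPKM after shelf life and 9.07 FPKM after cold storage in 1-MCP fruit, against 3.11 FPKM after shelf life and 12.8 FPKM after cold storage in control fruit, with 39.2 FPKM at harvest. Both loci were below harvest in both treatments after cold storage. After shelf life they were at their lowest in control fruit, and above harvest in 1-MCP fruit by less than 1 log2 unit (0.80 and 0.33).

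A similar course was seen at MDP0000296324 and CUFF.29270 (MDP0000196894), except that 1-MCP fruit stayed below harvest. MDP0000296324 was at 16.97 FPKM after shelf life and 3.44 FPKM after cold storage in 1-MCP fruit, against 1.05 FPKM after shelf life and 5.93 FPKM after cold storage in control fruit, with 55.7 FPKM at harvest. Its difference in control fruit was -1.76 with the pseudocount of 1 and -0.85 with a pseudocount of 5, which did not choose it. CUFF.29270 was at 16.8 FPKM after shelf life and 3.02 FPKM after cold storage in 1-MCP fruit, against 4.59 FPKM after shelf life and 19.7 FPKM after cold storage in control fruit, with 41.0 FPKM at harvest. The end of cold storage was the lowest point of CUFF.29270 in 1-MCP fruit, and at that time its control level was still close to the 1-MCP level reached 7 days later.

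CUFF.26135 (MDP0000295590) and CUFF.26134 (MDP0000295589), whose identifiers are consecutive in both numberings, had parallel values. CUFF.26135 was at 253 FPKM after shelf life and 68.5 FPKM after cold storage in 1-MCP fruit, against 36.1 FPKM after shelf life and 141 FPKM after cold storage in control fruit, with 267 FPKM at harvest. CUFF.26134 was at 82.3 FPKM after shelf life and 23.9 FPKM after cold storage in 1-MCP fruit, against 12.4 FPKM after shelf life and 54.2 FPKM after cold storage in control fruit, with 93.5 FPKM at harvest. At each of them 1-MCP fruit after shelf life were close to harvest, and each of the 5 values of CUFF.26135 was higher than that of CUFF.26134.

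CUFF.14171 (MDP0000410264) and MDP0000817926 were within 1 log2 unit of harvest after cold storage in both treatments and parted during shelf life. CUFF.14171 was at 54.3 FPKM after shelf life and 16.4 FPKM after cold storage in 1-MCP fruit, against 1.53 FPKM after shelf life and 20.1 FPKM after cold storage in control fruit, with 23.2 FPKM at harvest. MDP0000817926 was at 68.2 FPKM after shelf life and 21.7 FPKM after cold storage in 1-MCP fruit, against 0.989 FPKM after shelf life and 25.3 FPKM after cold storage in control fruit, with 23.3 FPKM at harvest. The remaining one of the 12 loci with the largest opposite differences, CUFF.38345 (MDP0000868044), was at 113 FPKM after shelf life and 24.9 FPKM after cold storage in 1-MCP fruit, against 1.13 FPKM after shelf life and 6.82 FPKM after cold storage in control fruit, with 112 FPKM at harvest. Its 1-MCP value was thus above the control value at both times, whereas at CUFF.14171 and MDP0000817926 the treatments lay within 1 log2 unit of each other after cold storage. The control difference of CUFF.38345 was -1.88 with the pseudocount of 1 and -0.95 with a pseudocount of 5, which did not choose it.

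**Figure D2:**
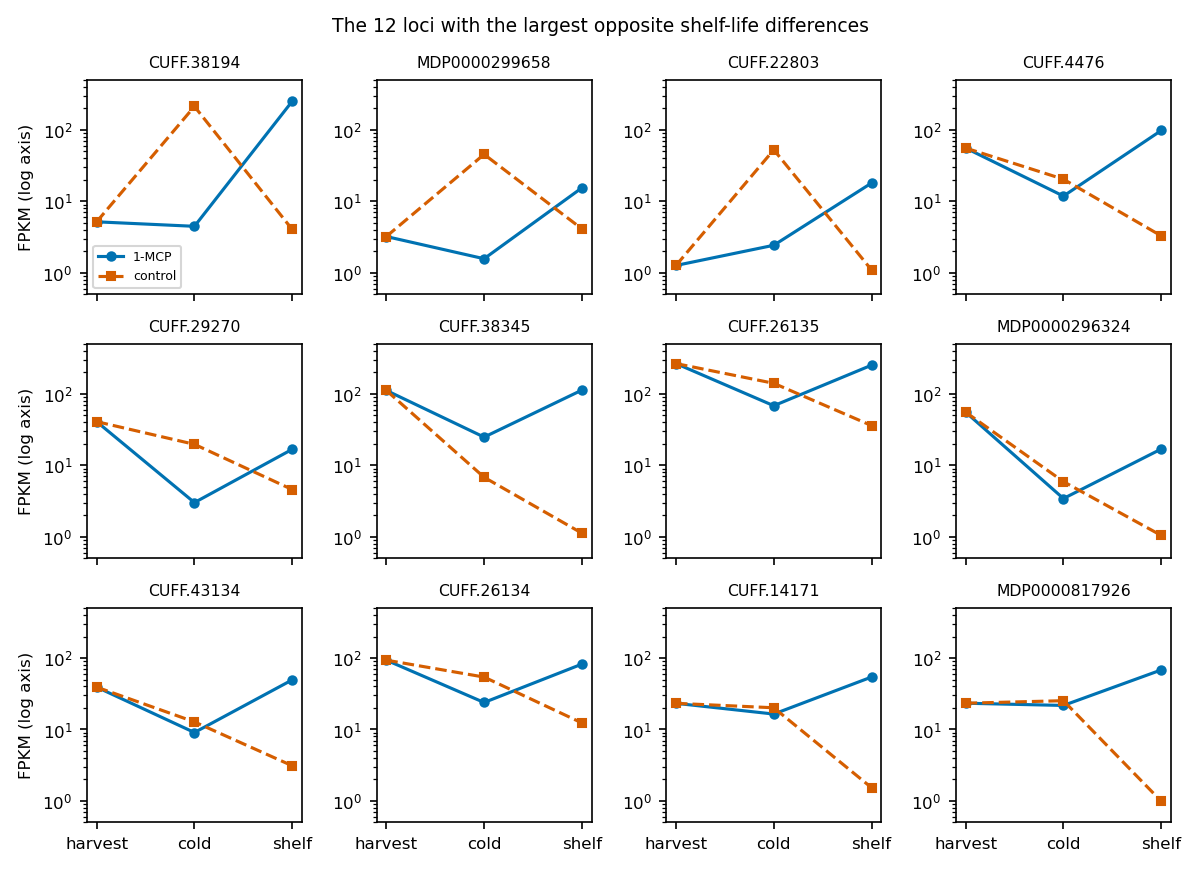
FPKM (log axis) at harvest, after cold storage and then after shelf life for the 12 loci with the largest opposite shelf-life differences, with 1-MCP fruit as blue circles and solid lines and control fruit as orange squares and dashed lines; both start from the same harvest value, and each point is the 1 value of its group. Control fruit peak after cold storage at CUFF.38194, MDP0000299658, CUFF.22803 and, by little, at MDP0000817926, and the 1-MCP line ends above the control line in all 12 panels.

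The treatments were then compared with each other at each time. The rule fixes that the 1-MCP minus control difference is at least 2 log2 units more positive after shelf life than after cold storage, so these counts describe the loci and support nothing. After shelf life 1-MCP fruit were higher by at least 1 log2 unit at 45 of the 62 loci and lower at 2, where 12.7% of all loci analysed were higher and 8.37% lower. After cold storage 1-MCP fruit were higher at 10 and lower at 34, where 8.90% of all loci were higher and 8.03% lower. Of these 10 higher loci, 4 are rows of identical values.

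In the largest class, 18 loci, the treatments lay within 1 log2 unit after cold storage and 1-MCP fruit were higher after shelf life, as at 6.87% of all loci analysed. CUFF.4476, CUFF.14171 and MDP0000817926 belong here, and so does CUFF.33851 (MDP0000304369), the most abundant locus of the class. CUFF.33851 was at 2624 FPKM after shelf life and 1293 FPKM after cold storage in 1-MCP fruit, against 490 FPKM after shelf life and 2521 FPKM after cold storage in control fruit, with 1402 FPKM at harvest. Its difference in 1-MCP fruit (1.02) was just inside the rule, while that in control fruit was -2.36. Over the 18 loci the levels after shelf life ran between 3.36 and 2624 FPKM in 1-MCP fruit, with a median of 51.9 FPKM, and between 0.150 and 490 FPKM in control fruit, with a median of 1.94 FPKM. After cold storage their medians were closer, 10.5 FPKM for 1-MCP and 16.5 FPKM for control fruit.

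Another 17 loci crossed over, where 1-MCP fruit were lower after cold storage and higher after shelf life. Over all 30310 loci, 42 had such a crossing. CUFF.43173 (MDP0000799392), the most abundant locus that crossed, was at 1596 FPKM after shelf life and 524 FPKM after cold storage in 1-MCP fruit, against 424 FPKM after shelf life and 1144 FPKM after cold storage in control fruit, with 642 FPKM at harvest. MDP0000333187 was at 216 FPKM after shelf life and 78.3 FPKM after cold storage in 1-MCP fruit, against 6.54 FPKM after shelf life and 163 FPKM after cold storage in control fruit, with 386 FPKM at harvest. Control fruit after shelf life held the lowest of the 5 values at both loci, but the highest value was that of 1-MCP fruit after shelf life at CUFF.43173 and that of harvest at MDP0000333187. Over the 17 loci the medians after shelf life were 18.1 FPKM for 1-MCP and 4.12 FPKM for control fruit, and after cold storage 6.02 FPKM for 1-MCP and 45.5 FPKM for control fruit, with 21.4 FPKM at harvest.

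At 15 loci 1-MCP fruit were lower after cold storage and within 1 log2 unit of control fruit after shelf life, so the treatments met, as at 2.37% of all loci analysed. CUFF.4956 (MDP0000385497) was at 214 FPKM after shelf life and 102 FPKM after cold storage in 1-MCP fruit, against 205 FPKM after shelf life and 427 FPKM after cold storage in control fruit, with 634 FPKM at harvest. CUFF.45785 (MDP0000585979) was at 5.09 FPKM after shelf life and 1.44 FPKM after cold storage in 1-MCP fruit, against 10.6 FPKM after shelf life and 43.6 FPKM after cold storage in control fruit, with 1.43 FPKM at harvest. The medians of the 15 loci after shelf life were 16.2 FPKM for 1-MCP and 16.7 FPKM for control fruit, and after cold storage 3.87 FPKM for 1-MCP and 43.6 FPKM for control fruit. That the groups differed mainly before shelf life follows from how the class is defined. The size of this class rested on the scaling of the columns. It held 24.2% of the chosen loci with the deposited values, but 12.3% after 75th percentile scaling and 10.7% after trimmed mean scaling, each over the loci chosen under that scaling. CUFF.4956 was not chosen under either, its control difference being -0.87 and -0.83.

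At 10 loci 1-MCP fruit were higher at both times, as at 5.68% of all loci analysed. This class includes the most abundant of the 62 loci. MDP0000265874 was at 8179 FPKM after shelf life and 3730 FPKM after cold storage in 1-MCP fruit, against 242 FPKM after shelf life and 523 FPKM after cold storage in control fruit, with 1779 FPKM at harvest. CUFF.2729, which carries gene models MDP0000264059 and MDP0000264060, was at 2833 FPKM after shelf life and 851 FPKM after cold storage in 1-MCP fruit, against 94.2 FPKM after shelf life and 197 FPKM after cold storage in control fruit, with 1618 FPKM at harvest. CUFF.45598 (MDP0000132530) was at 1434 FPKM after shelf life and 520 FPKM after cold storage in 1-MCP fruit, against 33.5 FPKM after shelf life and 85.0 FPKM after cold storage in control fruit, with 1005 FPKM at harvest. All of them were well below harvest in control fruit at both times. In 1-MCP fruit after shelf life their FPKM exceeded that at harvest, by 2.20 log2 units at MDP0000265874, 0.81 at CUFF.2729 and 0.51 at CUFF.45598. MDP0000265874 and CUFF.2729 were not chosen under any of the scalings of the columns, whereas CUFF.45598 was chosen under each. For MDP0000265874 the control difference was -0.92 with 75th percentile and -0.88 with trimmed mean scaling, and the 1-MCP difference 0.99 with quantile normalization. For CUFF.2729 the control difference was -0.87 with 75th percentile scaling, -0.83 with trimmed mean scaling and -0.91 with quantile normalization. The class held 16.1% of the chosen loci with the deposited values and 7.02% with quantile normalization.

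CUFF.8560 (MDP0000323987) had the lowest value of the 62 loci in control fruit after cold storage. It was at 112 FPKM after shelf life and 21.9 FPKM after cold storage in 1-MCP fruit, against 0.190 FPKM after shelf life and 1.68 FPKM after cold storage in control fruit, with 196 FPKM at harvest. Its difference in control fruit rests on values near or below 1 FPKM and was -1.17 with the pseudocount of 1 and -0.36 with a pseudocount of 5. Over the class of 10, control fruit were at least 1 log2 unit below harvest at 9 loci after cold storage and at all 10 after shelf life. Over all loci analysed 12.5% and 20.4% were that far below. In 1-MCP fruit after shelf life, 8 of the 10 were within 1 log2 unit of harvest and 2 above it, against 84.7% and 3.09% of all loci. These counts include the 4 rows of identical values.

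At the remaining 2 loci, 1-MCP fruit were lower at both times, as at 5.52% of all loci analysed. MDP0000264639 was at 4.31 FPKM after shelf life and 1.51 FPKM after cold storage in 1-MCP fruit, against 81.8 FPKM after shelf life and 205 FPKM after cold storage in control fruit, with 1.27 FPKM at harvest. MDP0000143918 was at 5.82 FPKM after shelf life and 0.428 FPKM after cold storage in 1-MCP fruit, against 41.8 FPKM after shelf life and 98.1 FPKM after cold storage in control fruit, with 9.18 FPKM at harvest. At these loci stored control fruit were far above harvest at both times, although lower after shelf life than before it, so the opposite shelf-life differences did not bring the treatments to the same level.

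**Figure D3:**
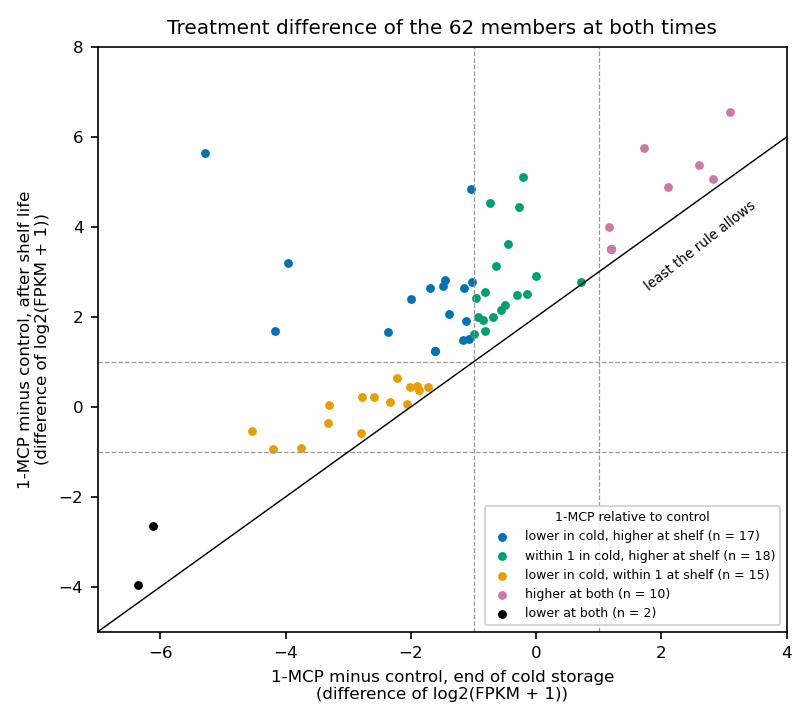
Each point is 1 of the 62 loci; the x axis gives the 1-MCP minus control difference of log2(FPKM + 1) after cold storage and the y axis the same difference after shelf life, with dashed lines at -1 and 1 and a solid line at the least difference between the times that the rule allows. Colours mark the 5 classes of 17, 18, 15, 10 and 2 loci; the points run along the solid line from the lower left to the upper right, and CUFF.38194 lies farthest above it.

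At some loci the stored levels of the treatments were exchanged within 1 log2 unit. At 22 of the 62 loci (35.5%) 1-MCP fruit after shelf life lay within 1 log2 unit of control fruit after cold storage, and control fruit after shelf life within 1 log2 unit of 1-MCP fruit after cold storage. In the set with the reverse pattern this held at 15 of 86 loci (17.4%), and over all loci analysed, most of which changed little, at 20104 of 30310 (66.3%). It held at 18.2% of the loci lower with shelf life in control fruit only and at 14.4% of those higher in 1-MCP fruit only. The differences between the sets were not tested. The share depended on the pseudocount, being 22.2% with a pseudocount of 0.1 and 48.3% with a pseudocount of 5. CUFF.38194, CUFF.29270, CUFF.26134, CUFF.26135 and CUFF.43173 were among the 22.

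Harvest is the only group that the rule did not use beyond its filters. At harvest the 62 loci had a lowest value of 1.27 FPKM, a median of 22.1 FPKM and a highest value of 1779 FPKM. The median was 20.4 FPKM after shelf life and 8.84 FPKM after cold storage in 1-MCP fruit, and 5.69 FPKM and 28.2 FPKM at the same times in control fruit. The harvest median was thus closer to the higher stored median of each treatment than to the lower one. It was the highest of the 5 values at 16 loci, the second highest at 23, the third at 13, the fourth at 5 and the lowest at 5. It was thus the highest at 25.8% of the 62, against 33.6% of all loci analysed. It was the second highest at 37.1% of the 62, against 5460 of the 30310. Loci higher with shelf life in 1-MCP fruit only were close to the 62, with harvest the highest at 24.5% and the second highest at 33.0%. For loci lower in control fruit only the shares were 41.5% and 22.9%. The rank of harvest depends on the stored columns that the rule picked, so it is not free of the choice, and these gaps were not tested.

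In 1-MCP fruit after shelf life, 19 loci were at least 1 log2 unit above harvest and 13 below, where 3.09% of all loci were above and 12.2% below. In 1-MCP fruit after cold storage, 2 loci were above harvest and 33 below (5.12% and 9.63% of all loci). The 2 loci above harvest were MDP0000265874 and CUFF.32561, the second named after its values were seen. No chosen locus was above harvest there under any of the 3 scalings of the columns. MDP0000265874 itself was not chosen under any of the 3, and CUFF.32561 was not chosen under all 3. In control fruit after shelf life, 3 loci were above and 41 below (6.37% and 20.4% of all loci). Control fruit after cold storage were above harvest at 12 loci and below at 18 (6.60% and 12.5% of all loci). Because the rule picked the stored columns for being high or low, these shares are partly fixed by the choice.

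Sets chosen by only 1 of the conditions show how much. In control fruit after shelf life, 66.1% of the 62 loci were below harvest, against 68.6% of the 1887 loci that were lower with shelf life in control fruit and within 1 log2 unit in 1-MCP fruit. In 1-MCP fruit after cold storage, 53.2% of the 62 were below harvest, against 48.4% of the 376 loci that were higher with shelf life in 1-MCP fruit and within 1 log2 unit in control fruit. Above harvest in 1-MCP fruit after shelf life stood 30.6% of the 62, against 25.3% of the 376. No test of these gaps was possible.

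**Figure D4:**
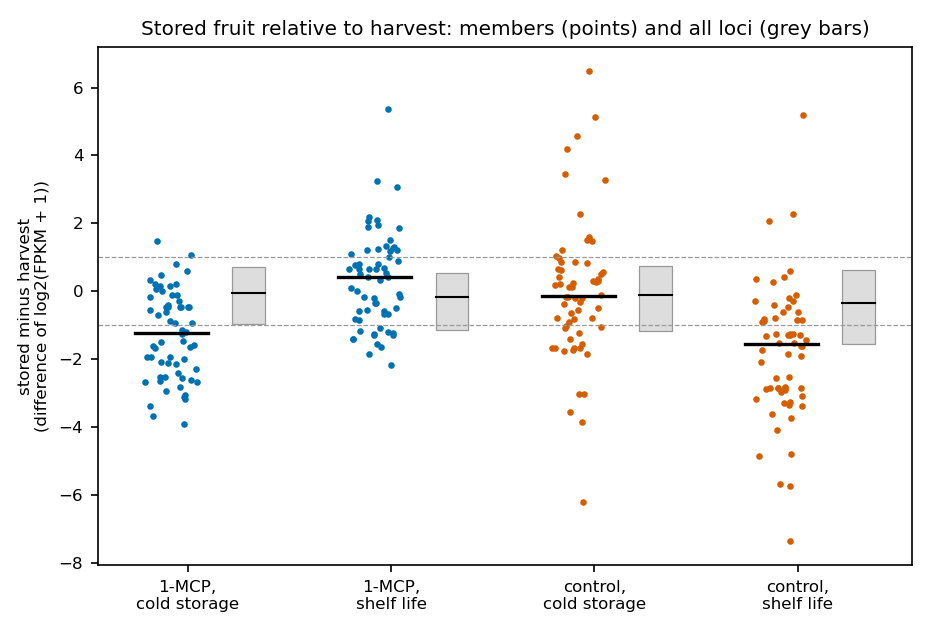
Stored minus harvest difference of log2(FPKM + 1) for the 62 loci in each stored group (blue points for 1-MCP fruit, orange for control fruit, with a black bar at the median); the grey bars span the 10th to 90th percentile of the 30310 loci analysed, with their median. The medians of the 62 loci are 0.42 after shelf life and -1.22 after cold storage in 1-MCP fruit, and -1.57 after shelf life and -0.14 after cold storage in control fruit.

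Within the 62 loci, harvest went with the low stored values at some and with the high ones at others. At 6 loci both low columns (1-MCP fruit after cold storage and control fruit after shelf life) lay within 1 log2 unit of harvest and both high columns lay above it. These were CUFF.38194, MDP0000299658, CUFF.22803, CUFF.4443, CUFF.47388 and MDP0000908305. Over all loci analysed 20 had this shape (0.066%), as did 0.265% of the loci lower in control fruit only and 0.266% of those higher in 1-MCP fruit only. At 8 loci it was the other way round, with both high columns within 1 log2 unit of harvest and both low columns below it. This was so at 62 of all loci analysed (0.205%), at 1.06% of those lower in control fruit only and at 1.6% of those higher in 1-MCP fruit only. The rule asks for a gap between the high and the low columns, so part of the excess over all loci is fixed by the choice. CUFF.26134, CUFF.26135, CUFF.38340, MDP0000329846, MDP0000669940, MDP0000328574, MDP0000245702 and MDP0000135898 made up this group, and the loci of both groups beyond those named by rule were picked out after their values were seen.

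CUFF.38340 (MDP0000661381) shows the shape with harvest near the high values. It was at 73.2 FPKM after shelf life and 29.7 FPKM after cold storage in 1-MCP fruit, against 25.1 FPKM after shelf life and 63.6 FPKM after cold storage in control fruit, with 69.1 FPKM at harvest. MDP0000908305, which was not chosen under all 3 scalings of the columns, shows the shape with harvest near the low values. It was at 129 FPKM after shelf life and 43.6 FPKM after cold storage in 1-MCP fruit, against 45.7 FPKM after shelf life and 99.7 FPKM after cold storage in control fruit, with 34.2 FPKM at harvest. CUFF.47388 (MDP0000143220) was at 8.20 FPKM after shelf life and 3.06 FPKM after cold storage in 1-MCP fruit, against 4.92 FPKM after shelf life and 17.9 FPKM after cold storage in control fruit, with 2.92 FPKM at harvest.

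**Figure D5:**
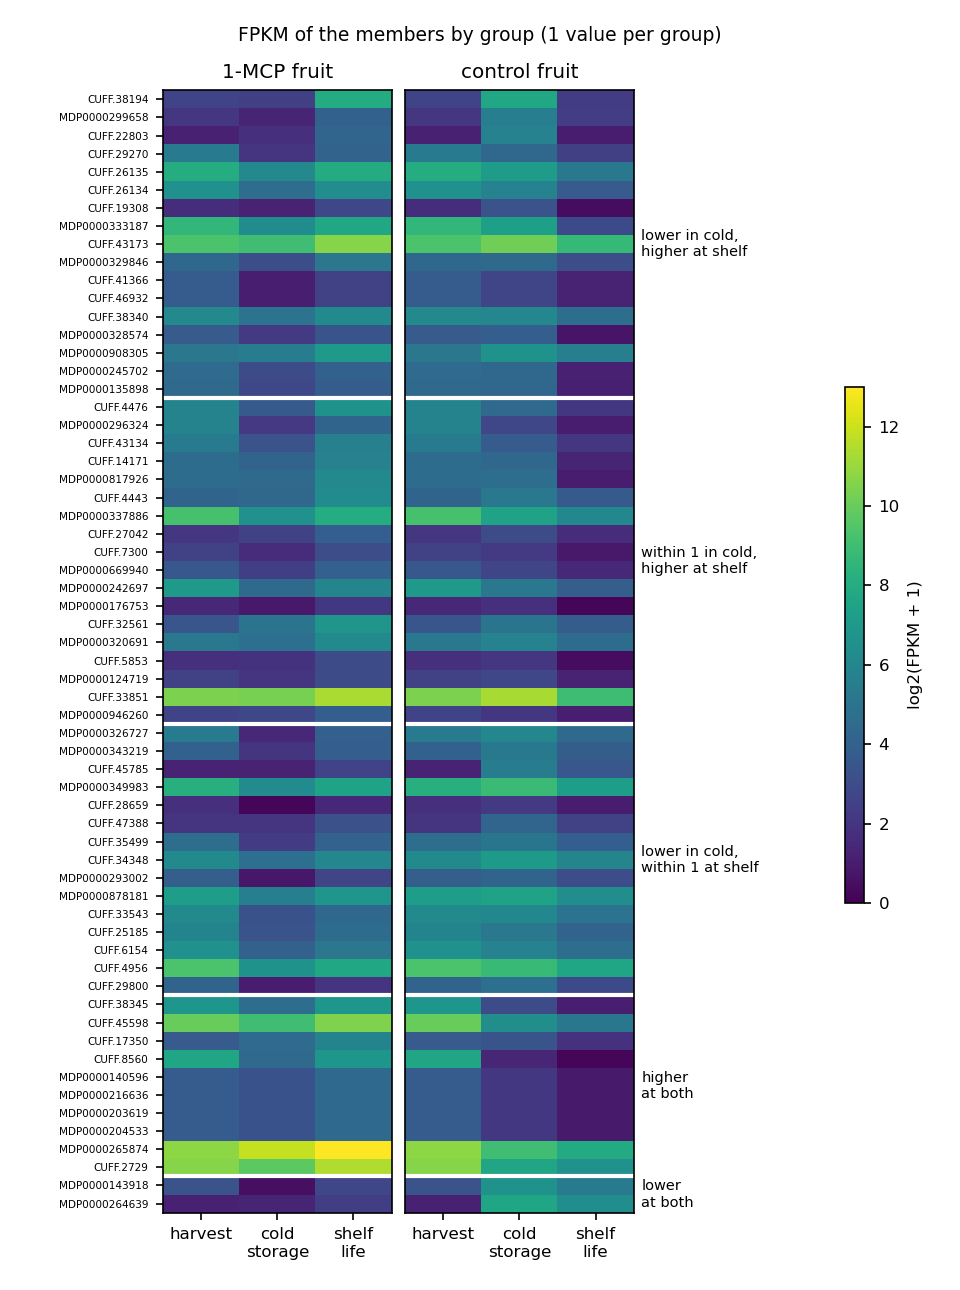
log2(FPKM + 1) of the 62 loci (rows) at harvest, after cold storage and then after shelf life, for 1-MCP fruit (left) and control fruit (right), with 1 value per group and the harvest column repeated in both panels. White lines separate the 5 classes of treatment difference named at the right; in each row the last step is to a brighter colour in 1-MCP fruit and to a darker colour in control fruit.

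The loci spanned a wide range of levels and single loci carried a large part of the summed level. Their summed level was 19834 FPKM after shelf life and 7886 FPKM after cold storage in 1-MCP fruit, against 2370 FPKM after shelf life and 7804 FPKM after cold storage in control fruit, with 10350 FPKM at harvest. These sums were 0.686% and 0.284% of all FPKM in 1-MCP fruit, 0.0891% and 0.311% in control fruit, and 0.388% at harvest. MDP0000265874 alone gave 8179 of the 19834 FPKM in 1-MCP fruit after shelf life. That locus was not chosen under any of the scalings of the columns, so its part of the sum rested on the scaling. In control fruit the largest part was that of CUFF.33851, with 490 of 2370 FPKM after shelf life and 2521 of 7804 FPKM after cold storage. By their mean over the 5 groups 11 loci were at 100 FPKM or more and 18 below 10 FPKM, and 15 loci had a stored value below 1 FPKM.

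Of the 62 loci, 34 were loci assembled from the reads (CUFF numbers) that carry a gene model, and 28 were gene models alone. The second kind made up 45.2% of the 62 and 22.4% of all loci analysed, and 40.0% of the loci lower in control fruit only and 46.0% of those higher in 1-MCP fruit only. Besides CUFF.2729, CUFF.34348 carried several gene models (MDP0000920394 and MDP0000920400). CUFF.34348 was at 63.8 FPKM after shelf life and 25.6 FPKM after cold storage in 1-MCP fruit, against 59.0 FPKM after shelf life and 134 FPKM after cold storage in control fruit, with 72.9 FPKM at harvest.

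The 62 rows are not 62 separate measurements. MDP0000140596, MDP0000203619, MDP0000204533 and MDP0000216636 held the same value in every group, 20.4 FPKM after shelf life and 8.84 FPKM after cold storage in 1-MCP fruit, 0.892 FPKM and 3.30 FPKM in control fruit, and 12.6 FPKM at harvest. CUFF.41366 (MDP0000312044) and CUFF.46932 (MDP0000878790) shared their 4 stored values, 4.62 FPKM after shelf life and 1.15 FPKM after cold storage in 1-MCP fruit and 1.38 FPKM and 5.58 FPKM in control fruit, but stood at 12.7 FPKM and 12.9 FPKM at harvest. The rows therefore hold 58 distinct sets of stored values, and whether the 6 rows concerned are copies that share reads was not tested. In the whole table, 1185 of the 54238 rows without a 0 shared their 4 stored values with another row.

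At the edge of the rule, the nearest loci inside were CUFF.29800, MDP0000135898 and MDP0000946260, whose smaller difference was 1.00, 1.01 and 1.02. CUFF.29800 (MDP0000294360) was at 2.96 FPKM after shelf life and 0.978 FPKM after cold storage in 1-MCP fruit, against 6.47 FPKM after shelf life and 25.6 FPKM after cold storage in control fruit. MDP0000946260 was at 13.6 FPKM after shelf life and 6.11 FPKM after cold storage in 1-MCP fruit, against 1.13 FPKM after shelf life and 3.32 FPKM after cold storage in control fruit. The nearest loci outside were CUFF.2555 (MDP0000269907), CUFF.42091 (MDP0000349581) and MDP0000187103, whose smaller difference was 0.9985, 0.991 and 0.985. CUFF.2555 was at 22.7 FPKM after shelf life and 10.9 FPKM after cold storage in 1-MCP fruit, against 21.0 FPKM after shelf life and 48.6 FPKM after cold storage in control fruit. CUFF.42091 was at 24.3 FPKM after shelf life and 11.8 FPKM after cold storage in 1-MCP fruit, against 5.41 FPKM after shelf life and 14.2 FPKM after cold storage in control fruit. The smaller difference was alike on the 2 sides by selection. The difference in control fruit was -1.83, -3.17 and -1.02 at the loci inside and -1.18, -1.25 and -0.98 at those outside, in the order named.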

How the data were processed

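The deposited table holds FPKM for 80965 loci in 5 columns, 1 per group, written with decimal commas; per the file headers the authors gave no value per library, and whether a column stands for all 3 samples of its group is not stated. Non-directional libraries were sequenced as 100 bp reads, per the labels' protocols. TopHat2, Cufflinks and Cuffdiff were used, per the submitters' processing notes; their versions and the scaling between libraries are not given in the sources, nor is a genome build. Groups came from the sample titles. Differences of log2(FPKM + 1) were computed in Python 3.11.15 with pandas 2.3.3 and NumPy 2.4.6, on loci with a gene model, no 0 and a mean of at least 1 FPKM, and read by size (1 log2 unit); no model was fitted. The chosen loci, classes and rules were set with earlier results of these data known. Loci were named by rule: the 12 with the largest smaller difference, the 6 with the highest mean, the 4 with the highest and the 4 with the lowest harvest value relative to the mean of the stored values, and the 3 nearest each side of the threshold. The others named were chosen after their values were seen. Alternatives were 3 scalings of the columns, pseudocounts of 0.1 and 5, other filters and a larger difference.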

Additional observations from a re-analysis of the deposited data

Results flagged for a closer look

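The 62 loci stood out because the same 7 days of shelf life went with a higher level in 1-MCP fruit and a lower level in control fruit. They were chosen for this, there is 1 value per group, and the difference between the treatments was not tested.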

How the results depend on the processing

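No paired analysis was possible because each group has a single column; the replicate block and leaving out each replicate were not run for the same reason. The number of loci was 62 as deposited, 57 with 75th percentile scaling, 56 with trimmed mean scaling (30% trimmed at each end) and 57 with quantile normalization; 49, 47 and 46 of these were among the 62, and 43 of the 62 were chosen under all 3 scalings. It was 108 with a pseudocount of 0.1, 29 with a pseudocount of 5 and 4 with a difference of at least 2, each by construction of a looser or stricter rule; 22 of the 62 were chosen under all 3 scalings and both pseudocounts. It was 62 without the filter on low values, 56 with a mean of at least 5 FPKM, 86 with loci listed at 0 kept, 86 with loci lacking a gene model included, and 58 with rows of the same stored values counted once, which was added after the data were seen. Of 104 shares of the chosen loci recomputed, 96 stayed within the 95% exact binomial interval of the reported share. The interval treats the loci as independent draws, which they are not, and the recomputed sets overlap the 62, so this count only describes. Without the filter on low values the same 62 loci were chosen, so no share could move. The interval was also wide: the exchanged levels, 35.5% as deposited, counted as within it at 48.3% with a pseudocount of 5. Loci above harvest in 1-MCP fruit after cold storage were 0.0% of those chosen with each of the 3 scalings, none of which chose MDP0000265874. Those lower with 1-MCP after cold storage and within 1 log2 unit after shelf life were 12.3% with 75th percentile and 10.7% with trimmed mean scaling. Those higher with 1-MCP at both times were 7.02% with quantile normalization, the exchanged levels 22.2% with a pseudocount of 0.1, and loci above harvest in control fruit after shelf life 0.0% with a pseudocount of 5; the causes were not tested. Of 250 shelf-life differences of named loci, 24 moved so far that the ratio behind the log2 difference changed by over 1.5-fold, all under another pseudocount. This does not count by how much the log2 difference itself shrank. The difference of MDP0000264639 in 1-MCP fruit, 1.08 as deposited and 0.52 with a pseudocount of 5, was not among the 24. Of the 250, 0 changed sign. No pseudocount can change a sign, and the loci were chosen for differences of at least 1, so the 0 was largely fixed by the choice. Unknown depth limits loci near 1 FPKM most.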

Other observations

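MDP0000245702 and MDP0000135898 had nearly the same values throughout, a likeness noticed after the values were seen. MDP0000245702 was at 15.3 FPKM after shelf life and 6.70 FPKM after cold storage in 1-MCP fruit, against 1.30 FPKM after shelf life and 20.2 FPKM after cold storage in control fruit, with 22.7 FPKM at harvest. MDP0000135898 was at 13.1 FPKM after shelf life and 6.02 FPKM after cold storage in 1-MCP fruit, against 1.18 FPKM after shelf life and 18.6 FPKM after cold storage in control fruit, with 21.4 FPKM at harvest. Whether the loci are near-identical copies that share reads was not tested.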
